A study of Mus musculus with 6 samples.

Results

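The genes described here are 9 members of the Ly6/uPAR superfamily: Ly6a, Ly6c1, Ly6d, Ly6e, Ly6k, Ly6g6c, Lypd3, Lypd5 and Plaur. They were chosen by family name, with earlier results of the same contrast known, from the 43629 gene identifiers in the count table. The comparison of Dnmt1Δ/Δep with control cells therefore chose them in part. Their values in that comparison, including whether each met the rule for a call that was used for all genes, are given as a description, with no p-value, and support nothing. All 9 were found and all 9 passed the filter on low counts, which 16829 genes passed in all.

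Proteins of this superfamily share a small, cysteine-rich fold of 3 loops, often called the three-finger domain. Most are held on the outer face of the plasma membrane by a glycosylphosphatidylinositol (GPI) anchor, and a few are secreted. In skin, the family includes proteins of the upper epidermal layers, and in blood cells several members are classical surface antigens used to sort stem cells and lymphocytes. Plaur encodes the receptor for urokinase, a protease that turns plasminogen into plasmin at the cell surface.

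The samples were primary keratinocytes from the epidermis of female mice at postnatal day 3, cultured for 5 days according to the labels (another passage of the study gives a shorter time). DNMT1 is the maintenance DNA methyltransferase. Dnmt1Δ/Δep mice carried K5-Cre and 2 floxed Dnmt1 alleles (K5-Cre+ Dnmt1 f/f), and control mice were Dnmt1 f/f or Dnmt1 f/+ without Cre, on a mixed C57BL/6J and 129SV background. K5-Cre acts in keratin 5-expressing epithelium, so other cells carried into the culture keep Dnmt1. Poly(A) RNA of 3 control and 3 Dnmt1Δ/Δep libraries was sequenced, and the labels do not say whether a library is 1 mouse or a pool.

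Gene counts per library lay between 53433121 and 115526598. Dnmt1 mRNA was measured at 394, 379 and 324 CPM (counts scaled to library size and TMM factor) in control replicates 1, 2 and 3. In Dnmt1Δ/Δep replicates 1, 2 and 3 it was 49.7, 54.3 and 50.7 CPM. The change was -2.83 ± 0.11 (log2 fold change ± SE, edgeR adjusted p = 8.1e-05), so the deleted gene was lower in every library labelled Dnmt1Δ/Δep. The basal keratins Krt5 and Krt14 were measured at 12572 CPM or more and 5877 CPM or more, respectively, in every library. Each library is a bulk sample, in which fewer cells of a type and less RNA per cell cannot be told apart. A gene is counted as called below when its edgeR adjusted p was at most 0.05 and its log2 fold change at least 1 in size. By this rule 6.03% of all genes tested were called upregulated and 0.392% downregulated. At an unadjusted p under 0.05, 15.8% were higher and 7.79% lower, and the median log2 fold change of all genes tested was 0.00.

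The 9 genes lie at 3 loci (GRCm38, GENCODE M21). On chromosome 15, Ly6d (74762056-74763620, minus strand), Ly6k (74796874-74799986, minus), Ly6e (74955051-74959905, plus), Ly6a (74994877-74998031, minus) and Ly6c1 (75044018-75048830, minus) fall within 287 kb. On chromosome 7, Lypd5 (24349196-24355109), Plaur (24462484-24475968) and Lypd3 (24636550-24641118), all on the plus strand, fall within 292 kb. Ly6g6c is on chromosome 17 (35065388-35070050, plus). The bases just before the start site are shown for 4 of the genes, 1 or more from each locus, because DNMT1 keeps CpG dinucleotides methylated and these windows differ in how many they hold. They are the 250 bases upstream of the start in RefSeq (GRCm38.p6), which for Ly6g6c lies inside the GENCODE interval given above, 5′ to 3′ on the strand of the gene, with each CpG in capitals and, in Plaur, also a match to TGANTCA, the AP-1 recognition motif.
Plaur (chr7:24462233-24462482, plus strand): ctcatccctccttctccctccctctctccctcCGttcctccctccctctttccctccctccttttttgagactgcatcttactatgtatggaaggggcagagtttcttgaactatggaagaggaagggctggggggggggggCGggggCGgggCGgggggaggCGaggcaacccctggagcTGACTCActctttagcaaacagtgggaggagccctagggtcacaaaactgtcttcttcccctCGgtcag
Lypd5 (chr7:24348946-24349195, plus strand): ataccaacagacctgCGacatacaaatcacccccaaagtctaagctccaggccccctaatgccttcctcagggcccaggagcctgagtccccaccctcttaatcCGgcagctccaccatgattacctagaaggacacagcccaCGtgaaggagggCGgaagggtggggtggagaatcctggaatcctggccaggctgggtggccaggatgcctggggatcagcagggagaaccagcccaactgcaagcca
Ly6c1 (chr15:75048838-75049087, minus strand): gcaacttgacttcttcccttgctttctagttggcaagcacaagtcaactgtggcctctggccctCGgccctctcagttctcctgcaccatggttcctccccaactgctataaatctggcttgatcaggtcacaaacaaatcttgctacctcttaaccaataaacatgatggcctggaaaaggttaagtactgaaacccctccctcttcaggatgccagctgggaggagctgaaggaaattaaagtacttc
Ly6g6c (chr17:35067075-35067324, plus strand): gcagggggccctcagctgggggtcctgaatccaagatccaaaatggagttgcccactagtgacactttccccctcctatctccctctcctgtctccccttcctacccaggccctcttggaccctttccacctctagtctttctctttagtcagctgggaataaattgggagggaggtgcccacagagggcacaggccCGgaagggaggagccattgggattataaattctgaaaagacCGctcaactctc
The Plaur window holds 6 CpG, Lypd5 holds 4, Ly6g6c holds 2 and this Ly6c1 window holds 1. A second Ly6c1 window, from another RefSeq start (chr15:75048664-75048913), holds 0. Lypd3 holds 10 in its window, the most of the windows matched, and the median of 32851 such windows is 6. The AP-1 match, TGACTCA, ends 62 bases before the start of Plaur, and 6.75% of all windows hold TGANTCA on either strand. The letters of an interferon response element (GAAANNGAAA, in 2.98% of windows) and of a gamma-activated site (TTCNNNGAA, in 7.02%) were not found in these windows or in that of Lypd3, on either strand. RefSeq windows were matched for 5 of the 9 genes. Ly6a, Ly6d, Ly6e and Ly6k had none, so no motif was sought before their starts.

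Of the 9 genes, 4 were called upregulated (Ly6a, Ly6c1, Ly6e and Ly6k), 0 were called downregulated, and 5 were not called (Ly6d, Ly6g6c, Lypd3, Lypd5 and Plaur). In 6 of the 9, every Dnmt1Δ/Δep library was above every control library, which held for 18.2% of all genes tested. The log2 fold changes ran from 0.32 (Lypd3) to 3.68 (Ly6k), with a median of 1.40. Since the genes were chosen with this contrast known, nothing is read from these counts. Summed over the 9 genes, control libraries held 972, 1424 and 1595 CPM and Dnmt1Δ/Δep libraries 2802, 2827 and 2490 CPM. Ly6d and Lypd3 together made up 55.9% to 73.7% of it in control libraries and 43.1% to 45.2% in Dnmt1Δ/Δep libraries, and Ly6d and Ly6e together 65.2% to 68.6% and 65.6% to 70.4%.

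**Figure D1:**
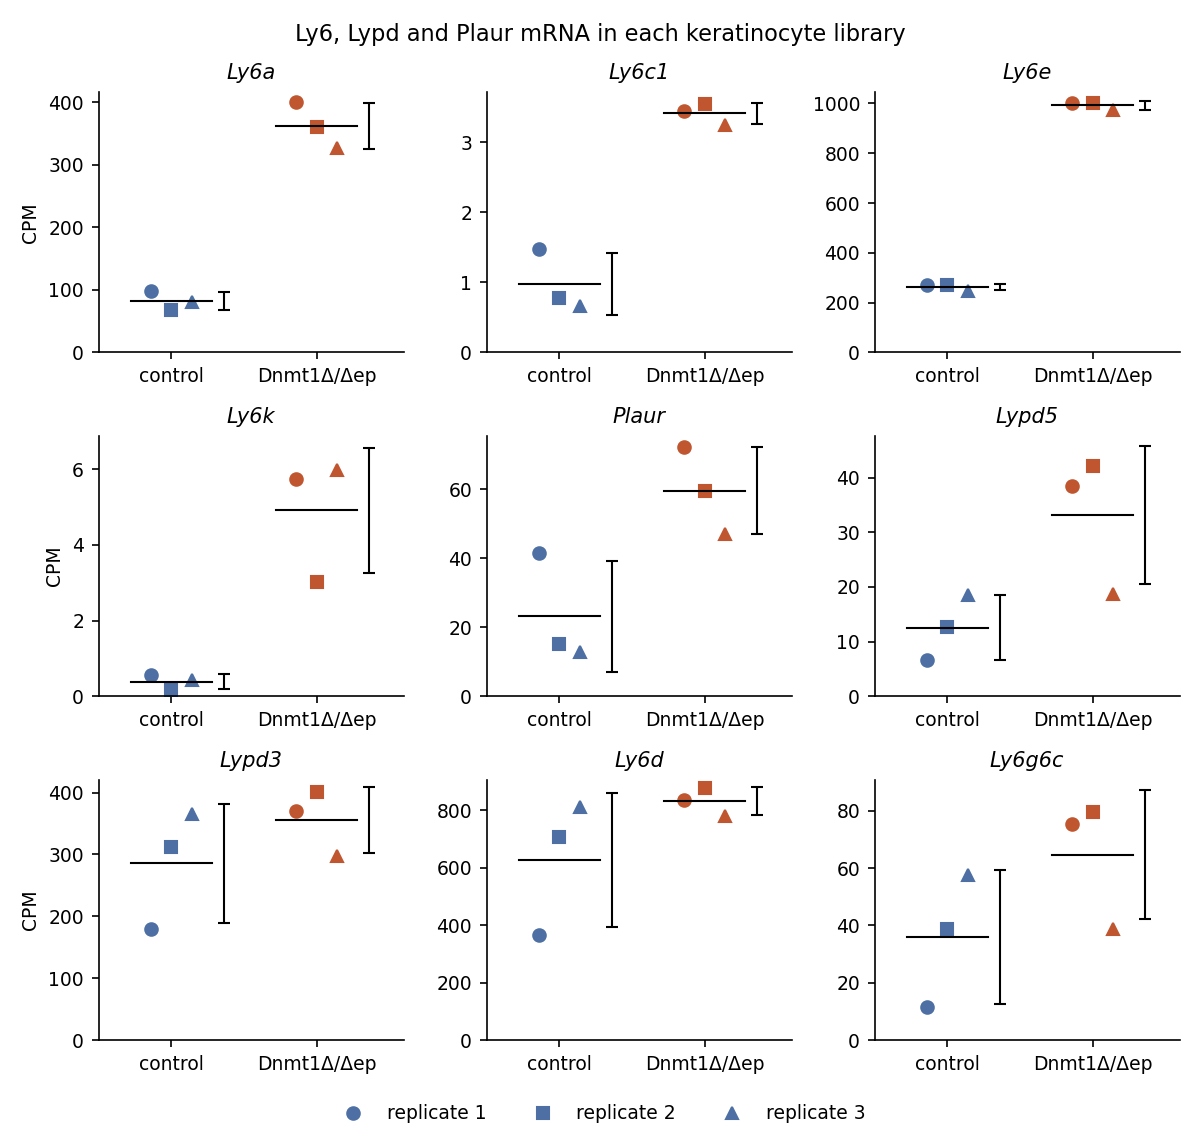
CPM (linear axis from 0) of each gene in the 3 control (blue) and 3 Dnmt1Δ/Δep (orange) libraries; symbols mark replicates, the horizontal line is the group mean and the bar beside it is ± 1 SD (n = 3). Groups are apart for Ly6a, Ly6c1, Ly6e, Ly6k, Plaur and, narrowly, Lypd5 (18.5 against 18.7 CPM), and overlap for Lypd3, Ly6d and Ly6g6c.

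Ly6e, a broadly expressed member known to modify virus entry and to be induced by interferon, was the most evenly measured of the 9. Its level was 269, 269 and 248 CPM in control replicates 1 to 3 and 1000, 1002 and 973 CPM in Dnmt1Δ/Δep replicates 1 to 3. The groups did not overlap, and the libraries within a group lay within 1.09-fold of each other. The fitted log2 fold change was 1.92 ± 0.09, or 3.79-fold. Within the pairs of libraries that shared a sequencing lane, the log2 ratio was 1.89, 1.90 and 1.97.

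Ly6a encodes stem cell antigen-1 (Sca-1), which marks hematopoietic stem cells and is also found on keratinocytes and endothelial cells. It was measured at 97.8, 68.6 and 81 CPM in control and at 400, 360 and 327 CPM in Dnmt1Δ/Δep libraries. The lowest Dnmt1Δ/Δep library was thus well above the highest control library. The log2 fold change was 2.13 ± 0.15, or 4.39-fold, and the lane pairs gave 2.03, 2.39 and 2.01.

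Ly6c1, one of the genes behind the Ly6C antigen of monocytes and endothelial cells, was a low transcript. It had 140, 76 and 36 counts in control libraries (1.48, 0.78 and 0.67 CPM) and 205, 307 and 384 counts in Dnmt1Δ/Δep libraries (3.44, 3.55 and 3.25 CPM). The Dnmt1Δ/Δep libraries were alike and the control libraries spread 2.21-fold, with replicate 1 highest. The fitted log2 fold change was 1.79 ± 0.32. The call was lost without control replicate 2 (1.65), without Dnmt1Δ/Δep replicate 1 (1.79) and without Dnmt1Δ/Δep replicate 2 (1.72).

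Ly6a and Ly6c1 are close copies, and the reads were counted only where they mapped uniquely. Of the 50-base stretches of annotated Ly6c1 transcripts, 32.8% also occur in transcripts of Ly6c2, Ly6a or Ly6i, and 19% of those of Ly6a occur in Ly6c1, Ly6c2, Ly6i or the gene I830127L07Rik. The levels of both genes are uncertain to that extent. The neighbouring copies were near the floor of the assay. Ly6c2, the other Ly6C gene, was at 0 in every control library, and Dnmt1Δ/Δep replicates 1 to 3 had 1, 0 and 8 counts, and Ly6i had between 0 and 9 counts in every library.

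Ly6k, best known from germ cells, where it is needed with Tex101 for sperm function, had the largest log2 fold change of the 9. It was measured at 0.56, 0.164 and 0.428 CPM in control libraries (53, 16 and 23 counts) and at 5.74, 3.01 and 5.98 CPM in Dnmt1Δ/Δep libraries (342, 260 and 706 counts). Control replicate 2 was lowest among controls and Dnmt1Δ/Δep replicate 2 lowest in its group, and the groups were far apart. Expressed as log2 fold change, this was 3.68 ± 0.49, or 12.8-fold. Of its exon bases, 47.6% overlap Gm17189 on the other strand. Whether counting used strand is not given in the sources used here, so it is not known how reads from the shared bases were counted. Gm17189 itself was measured at 2.07, 2.7 and 2.36 CPM in control libraries and 1.43, 2.13 and 1.91 CPM in Dnmt1Δ/Δep libraries, and did not pass the test (log2 fold change -0.38 ± 0.23, edgeR adjusted p = 0.39).

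Plaur, the urokinase receptor, was not called. It was measured at 41.7, 15.1 and 12.8 CPM in control and at 72.3, 59.6 and 47 CPM in Dnmt1Δ/Δep libraries. Control replicate 1 stood well above the other controls, and all Dnmt1Δ/Δep libraries were above it. The log2 fold change was 1.36 ± 0.44 in the fit of all 6 libraries, 2.10 without control replicate 1 and 1.55 with the replicate number as a block, and Plaur was called in both of the latter fits. The lane pairs gave 0.79, 1.99 and 1.88.

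Lypd5, of the same chromosome 7 locus as Plaur, was also not called. It was measured at 6.58, 12.6 and 18.5 CPM in control and at 38.5, 42.1 and 18.7 CPM in Dnmt1Δ/Δep libraries. The groups were only just apart, since control replicate 3 and Dnmt1Δ/Δep replicate 3 were nearly equal. Its fitted log2 fold change was 1.40 ± 0.42. The lane pairs gave 2.55, 1.74 and 0.02, so the third pair showed almost no difference.

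Ly6d, also known as ThB, a marker of early B cells and of stratified epithelium, was measured at 365, 708 and 811 CPM in control and at 837, 878 and 780 CPM in Dnmt1Δ/Δep libraries. Control replicate 1 was low and control replicate 3 lay inside the Dnmt1Δ/Δep range. The log2 fold change was 0.41 ± 0.27 and was 0.13 without control replicate 1 and 0.63 without control replicate 3. Lypd3, also known as C4.4A, a marker of suprabasal keratinocytes, behaved alike, with 179, 312 and 365 CPM in control and 370, 401 and 297 CPM in Dnmt1Δ/Δep libraries. Its groups overlapped and its log2 fold change was 0.32 ± 0.25, with 0.07 without control replicate 1 and 0.53 without control replicate 3. Of its exon bases, 13.6% overlap Gm26550.

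Ly6g6c, a member encoded in the class III region of the major histocompatibility complex, had the highest ratio of highest to lowest control among the 9, with 11.4, 38.8 and 57.7 CPM in control and 75.5, 79.6 and 38.9 CPM in Dnmt1Δ/Δep libraries. The highest control was 5.07-fold above the lowest, and Dnmt1Δ/Δep replicate 3 was nearly level with control replicate 2. The log2 fold change was 0.85 ± 0.54, with 2.73, 1.03 and -0.57 in the lane pairs, the third of which ran the other way. It was 0.42 without control replicate 1 and 1.36 without control replicate 3.

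Per kilobase of exon, Ly6d was the most abundant of the 9 in control cells, at 844 ± 314 RPKM (SD, n = 3), followed by Lypd3 at 173 ± 58.1, Ly6e at 69.2 ± 3.23 and Ly6a at 68.4 ± 12.2 RPKM. Ly6e and Ly6a did not differ beyond their spread. Then came Ly6g6c at 26.3 ± 17, Plaur at 8.85 ± 6.15 and Lypd5 at 5.61 ± 2.66 RPKM, 3 neighbours whose libraries overlapped from one to the next. Ly6c1 (0.582 ± 0.262 RPKM) and Ly6k (0.463 ± 0.243 RPKM) were last and overlapped each other. In Dnmt1Δ/Δep cells Ly6d was again first, at 1118 ± 66.3 RPKM. Ly6a (300 ± 30.4 RPKM) and Ly6e (262 ± 4.24 RPKM) now stood above Lypd3 (216 ± 32.2 RPKM), and Ly6k (5.92 ± 1.99 RPKM) above Ly6c1 (2.04 ± 0.089 RPKM). Ly6g6c (47.3 ± 16.4 RPKM), Plaur (22.8 ± 4.82 RPKM) and Lypd5 (14.8 ± 5.62 RPKM) came in the same order of means as in control. With the length of the longest transcript in place of all exons, Ly6e came before Ly6a in both groups (115 against 86.3 RPKM in control, 435 against 379 RPKM in Dnmt1Δ/Δep), and Lypd3 again came between Ly6d and Ly6e in control.

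**Figure D2:**
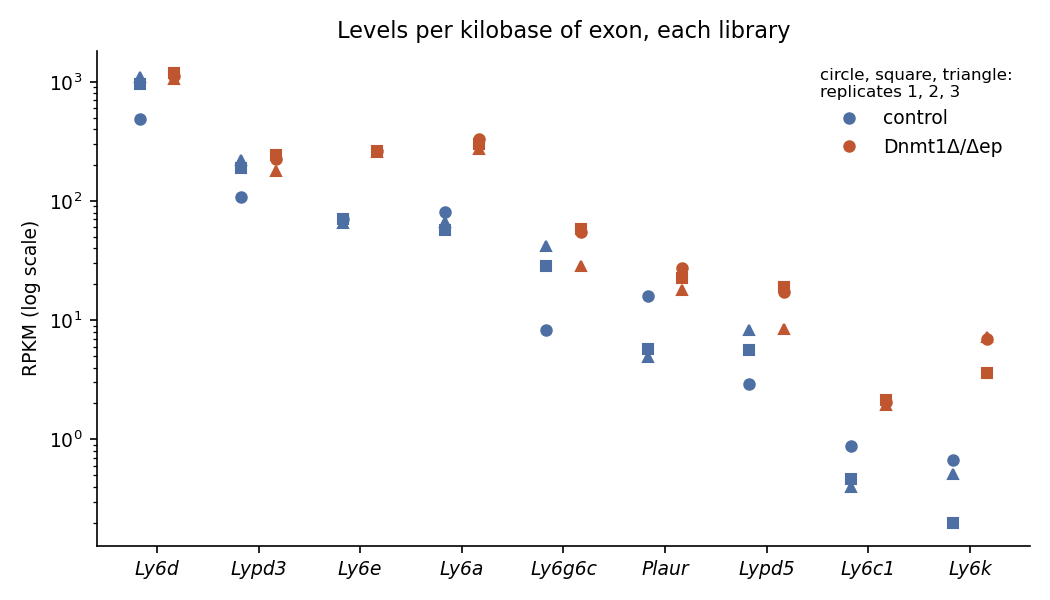
Level of each gene per kilobase of exon (RPKM, logarithmic axis) in each control (blue) and Dnmt1Δ/Δep (orange) library, with genes ordered by their control mean; symbols mark replicates 1, 2 and 3. Ly6d is highest in both groups, and Ly6e and Ly6a move from below Lypd3 in control to above it in the Dnmt1Δ/Δep group means.

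The 9 genes followed 2 patterns over the libraries. Ly6a, Ly6c1, Ly6e and Ly6k followed the genotype, and the Pearson correlations of log2(CPM + 1) between them lay between 0.93 and 0.99 over the 6 libraries, which fall into 2 groups. Ly6d, Ly6g6c and Lypd3 were lowest in control replicate 1 and followed each other (0.96 to 0.99), whereas Ly6d and Ly6e correlated at 0.54 and Lypd3 and Plaur at -0.01. Lypd5 lay between the 2 patterns (0.93 with Ly6g6c, 0.78 with Ly6e), and Plaur followed Ly6c1 (0.94). These are descriptions over 6 libraries and carry no test.

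**Figure D3:**
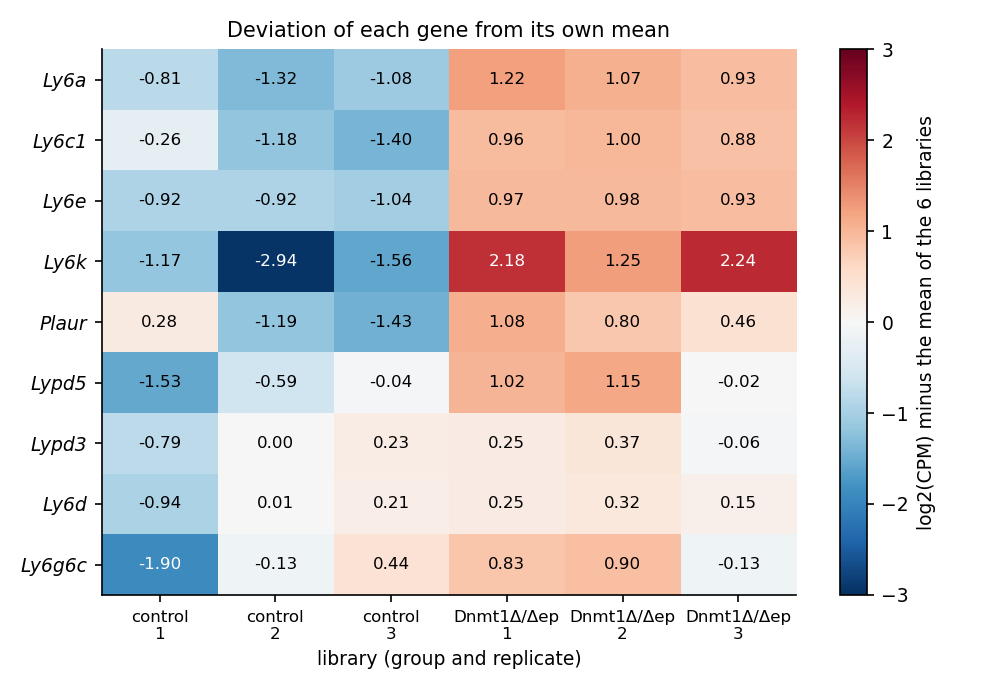
Deviation of each gene from its own mean over the 6 libraries, in log2(CPM); columns are libraries, rows are genes, red is above and blue below the mean. The upper rows switch sign between the groups, except Plaur in control replicate 1 (0.28), and the lower rows are lowest in control replicate 1 (Ly6g6c, -1.90) with Dnmt1Δ/Δep replicate 3 at or below the mean for Lypd5, Lypd3 and Ly6g6c.

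The genes most like each member, taken as the 3 highest correlations over the 6 libraries among genes with a mean of at least 10 CPM, differed with the pattern. Ly6e was followed by Kyat3, Dhx16 and St6gal1 (all at 0.998 or more), and Ly6a by Nfkbiz, Ermp1 and Noct (0.998, 0.997 and 0.997). Ly6k was followed by Bst2, Lrp6 and Map1b (0.996, 0.992 and 0.991), of which Bst2 encodes tetherin, an interferon-induced surface protein with a GPI anchor. Ly6c1 was followed by St3gal1, Vcl and Herc3 (0.998, 0.996 and 0.994) and Plaur by Ssr1, Slc20a1 and Lasp1 (0.996, 0.995 and 0.995). Of the genes that did not follow the genotype, Lypd3 was nearest to Ripk4, Ly6g6c and Mxd1 (0.998, 0.991 and 0.990), and Ly6g6c to Mxd1, Ripk4 and Psapl1 (0.996, 0.994 and 0.993). Ripk4 encodes a kinase needed for keratinocyte differentiation. Lypd5 was nearest to Rhou, Krt80 and Klk11 (0.998, 0.996 and 0.996), and Ly6d to March2, Akap13 and Cln3 (0.997, 0.994 and 0.989). Each member was compared with 9309 or 9310 genes, and the genes correlated at 0.990 or more numbered from 2 (Ly6d) to 27 (Ly6a). Many of the genes named were thus nearly tied with others. Their own log2 fold changes ran from 0.07 (Ripk4) to 2.52 (Noct).

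To place the 9 genes in their family, 50 other Ly6/uPAR genes were listed by name. Of these, 35 were matched by symbol, and 17 of the 35 passed the filter. Of the 35, 26 stayed below 1 CPM in every library, and 6 of those had 0 counts throughout. The other names, Ly6m, Ly6a2 and Ly6g2 among them, found no match. Any of them held under another symbol are not in these counts. Of the 17 tested, 3 were upregulated (Psca, Ly6f and Tex101) and 0 downregulated by edgeR. DESeq2 also called 0 downregulated. At an unadjusted p under 0.05, 6 were higher and 1 was lower, and the median log2 fold change was 0.33 against 0.00 for all genes tested.

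Psca, prostate stem cell antigen, rose from 1.22, 0.482 and 0.651 CPM to 16.7, 10 and 2.16 CPM (log2 fold change 3.60 ± 0.75, edgeR adjusted p = 0.026). Its Dnmt1Δ/Δep libraries spread widely, with replicate 3 far below the others. Ly6f rose by 2.06 ± 0.46 on the log2 scale from 16, 6 and 5 counts to 33, 39 and 45 counts (edgeR adjusted p = 0.035). Tex101, the testis partner of Ly6k, was at 0 counts in all controls, against 20, 17 and 50 counts in Dnmt1Δ/Δep libraries (edgeR adjusted p = 0.01), and with a floor of 3 counts per control library its level was at least 8.08-fold higher. The call of Psca was lost without control replicate 2 (3.34) or 3 (3.49) and without Dnmt1Δ/Δep replicate 1 (2.95) or 2 (3.52), and that of Ly6f in every fit without a library except that without control replicate 1, with values between 1.76 and 2.19. The edgeR and DESeq2 adjusted p of Psca ranged over the alternatives from 0.00038 to 0.11, and that of Ly6f from 0.0065 to 0.13.

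Lypd6b was higher in all Dnmt1Δ/Δep libraries, with 25.4, 28.9 and 28.8 CPM in control and 42.9, 43.6 and 41.5 CPM in Dnmt1Δ/Δep (log2 fold change 0.62 ± 0.10, edgeR adjusted p = 0.0099), a difference smaller than the fold required for a call. Cd59a, which shields cells from complement, was lower in all Dnmt1Δ/Δep libraries (8.31, 10 and 12.6 CPM against 6.53, 5.52 and 6.84 CPM) and did not pass the test (log2 fold change -0.71 ± 0.19, edgeR adjusted p = 0.064). Lynx1, a modulator of nicotinic receptors, was measured at 14.1, 17.8 and 18.8 CPM in control and 20.8, 23.3 and 19.5 CPM in Dnmt1Δ/Δep (0.33 ± 0.15, edgeR adjusted p = 0.23). Pinlyp (0.66 ± 0.33), Ly6g6e (0.37 ± 0.53) and Lypd6 (0.25 ± 0.39) had means above 1 CPM and did not pass the test.

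**Figure D4:**
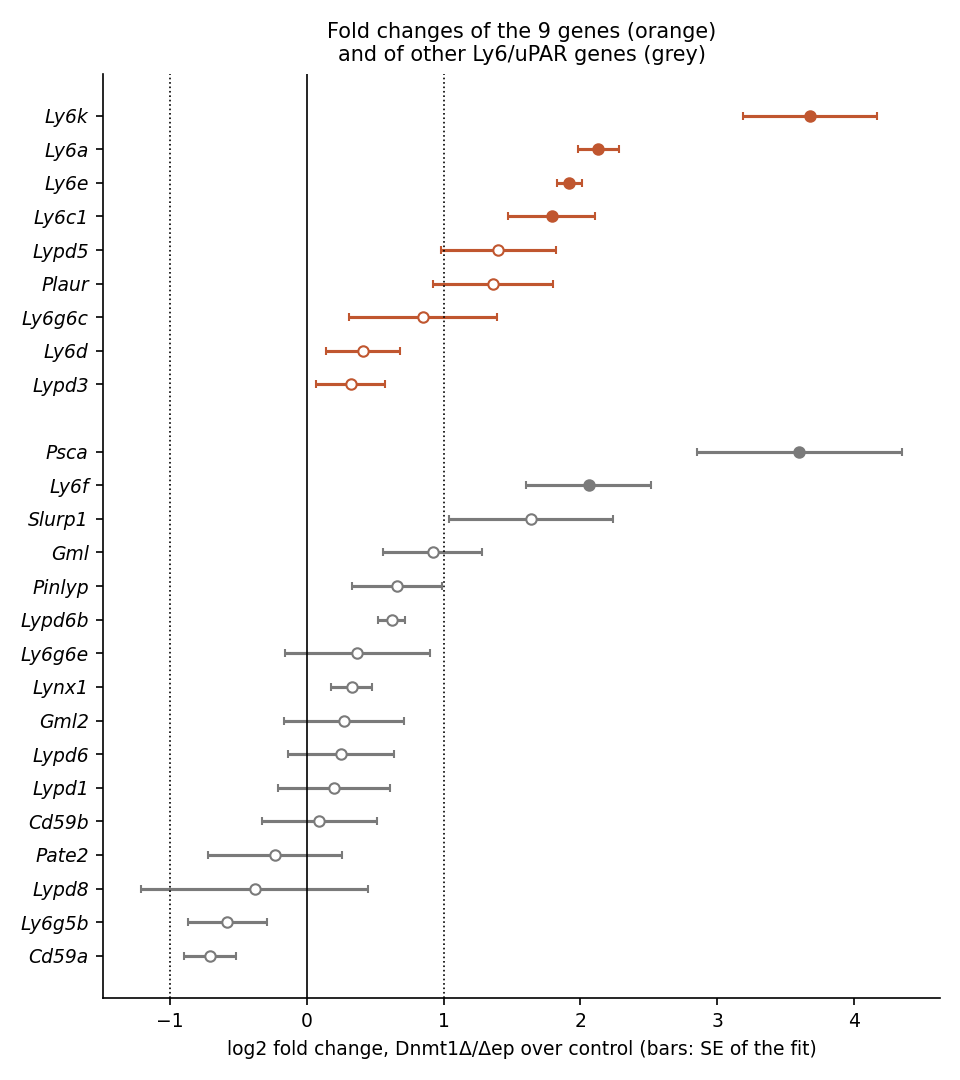
Log2 fold change of Dnmt1Δ/Δep over control with its SE for the 9 genes (orange) and for 16 other Ly6/uPAR genes that passed the filter (grey); filled symbols were called, dotted lines mark a log2 fold change of 1 in size. Tex101, with 0 counts in control, has no fold change and is not drawn. Ly6k and Psca lie furthest right (3.68 and 3.60).

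Plaur was set beside 24 genes of the urokinase and plasminogen system, of which 18 passed the filter. Of these, 1 was upregulated and 0 were downregulated (0 also by DESeq2), beside 6.03% and 0.392% of all genes tested. At an unadjusted p under 0.05, 5 were higher and 1 lower, and the median log2 fold change was 0.32. The gene called was Plau, which encodes urokinase, the ligand of the receptor. It rose from 74.2, 50.4 and 62.5 CPM to 266, 216 and 194 CPM (log2 fold change 1.85 ± 0.18, edgeR adjusted p = 0.0014), and its groups did not overlap. With the block, 2 genes of the list were called.

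Most of the family needs a GPI anchor, and of 31 genes of anchor synthesis and transfer 30 passed the filter. Their median log2 fold change was 0.05. Of the 30, 2 were upregulated and 0 downregulated (0 also by DESeq2), beside 6.03% and 0.392% of all genes tested. At an unadjusted p under 0.05, 4 were higher and 0 lower. The 2 genes called were Tmem8 (1.23 ± 0.20, edgeR adjusted p = 0.012), which rose from 0.888, 0.903 and 0.838 CPM to 2.03, 2.09 and 2.05 CPM, and Gpld1 (1.06 ± 0.22, edgeR adjusted p = 0.024), whose product cleaves GPI anchors. Both calls were lost without control replicate 2, Dnmt1Δ/Δep replicate 1 or Dnmt1Δ/Δep replicate 2, and that of Gpld1 also without control replicate 1 or Dnmt1Δ/Δep replicate 3. The summed level of the list was 1120 to 1200 CPM in control and 1213 to 1240 CPM in Dnmt1Δ/Δep libraries.

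Ly6a, Ly6c1 and Ly6e are known to respond to interferon, so 54 other interferon-stimulated genes were set beside them. Of the 50 tested, 28 were upregulated and 0 downregulated, with a median log2 fold change of 2.04. The 3 largest fitted rises were those of Iigp1, Ifi44 and Oasl2, genes with few reads in control. Iigp1 had 0, 1 and 0 counts in control and 9, 14 and 66 in Dnmt1Δ/Δep libraries, Ifi44 had 0, 1 and 2 against 11, 11 and 99, and Oasl2 had 1, 5 and 13 against 69, 89 and 302. Summed over the list, control libraries held 332, 343 and 391 CPM and Dnmt1Δ/Δep libraries 544, 514 and 663 CPM. Of the 50, 37 were higher and 0 lower at an unadjusted p under 0.05, and DESeq2 also called 0 downregulated. The count of 28 upregulated genes became 10 without control replicate 2, 12 without Dnmt1Δ/Δep replicate 3, 15 without Dnmt1Δ/Δep replicate 1 and 18 without Dnmt1Δ/Δep replicate 2. The calls of Ifi44 and Oasl2 were lost in 6 and 4 of the 6 fits without a library and that of Iigp1 without control replicate 2.

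Lypd3 marks suprabasal keratinocytes, so Lypd3 and the 3 genes that varied with it (Ly6d, Lypd5 and Ly6g6c) were set beside 25 genes of suprabasal differentiation, of which 23 were tested. Of these, 1 was upregulated and 0 downregulated by edgeR (3 and 2 by DESeq2), beside 6.03% and 0.392% of all genes tested by edgeR. At an unadjusted p under 0.05, 3 were higher and 3 lower, and the median log2 fold change was 0.22. The gene called was Cnfn, cornifelin of the cornified envelope, which rose from 20.1, 22.7 and 32.5 CPM to 129, 126 and 40.3 CPM (1.97 ± 0.43, edgeR adjusted p = 0.032) and was not called with the replicate block (adjusted p = 0.07), nor without control replicate 1 or 2 or Dnmt1Δ/Δep replicate 1 or 2. The summed level of the list was 4382, 5609 and 7594 CPM in control and 7927, 7314 and 4598 CPM in Dnmt1Δ/Δep libraries. Control replicate 1 and Dnmt1Δ/Δep replicate 3 were thus the lowest of their groups, as they were for Lypd3, Ly6d, Lypd5 and Ly6g6c. The part of differentiation in the values of these 4 genes was not tested. Of 12 basal keratinocyte genes 0 were upregulated and 1 was downregulated, Krt15, which fell from 1.54, 8.74 and 11.6 CPM to 0.637, 0.613 and 0.483 CPM (-3.66 ± 0.69, edgeR adjusted p = 0.019) and was not called without control replicate 2 or any 1 Dnmt1Δ/Δep library. A further 4 (Krt5, Krt14, Col17a1 and Dst) were lower at an edgeR adjusted p of 0.038, 0.028, 0.035 and 0.013, with log2 fold changes of -0.50, -0.61, -0.55 and -0.76 that are smaller than a call requires. At an unadjusted p under 0.05, 2 of the 12 were higher and 5 lower, and the list summed to 30971 to 35368 CPM in control and 25300 to 25686 CPM in Dnmt1Δ/Δep libraries, with no overlap.

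Several of the 9 genes are surface antigens of other cell types, so marker lists of such cells were read in the same libraries. Of 17 macrophage and dendritic cell markers 7 were tested and 2 called upregulated (Csf1r and Itgam, lost in 3 and 5 of the 6 fits without a library, Csf1r also with the replicate block), and the list summed to 53.7 to 68.5 CPM in control and 108 to 124 CPM in Dnmt1Δ/Δep libraries, most of it Cd68, a lysosomal protein that is not restricted to macrophages. The defining markers Adgre1, C1qa and Ptprc had at most 12 counts in any library. Of 12 neutrophil markers 4 were tested and 3 called upregulated, and the list summed to 49.6 to 127 CPM in control and 193 to 256 CPM in Dnmt1Δ/Δep libraries, nearly all of it S100a8 and S100a9, which keratinocytes also express. Ly6g and Mpo had at most 2 counts in any library and Csf3r had 0. Of 12 endothelial markers 10 were tested and 3 called upregulated (Pecam1, Cdh5 and Flt1), with sums of 16.8 to 31.2 CPM and 46 to 51.7 CPM, and Cldn5 had at most 1 count in any library. Cdh5 was measured at 0.56, 0.113 and 0.0931 CPM in control and 5.82, 4.41 and 3.64 CPM in Dnmt1Δ/Δep libraries. The T cell list had 0 genes called by edgeR of 2 tested, with 1 higher and 1 lower at an unadjusted p under 0.05.

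Fibroblast and melanocyte markers were measured in these libraries as well. The fibroblast list summed to 72.7 to 132 CPM in control and to 298, 115 and 289 CPM in Dnmt1Δ/Δep replicates 1, 2 and 3. Of 13 tested genes 1 was called upregulated (Fbn1, lost with the replicate block and in 5 of the 6 fits without a library). At an unadjusted p under 0.05, 6 were higher and 0 lower, and the median log2 fold change was 1.23. The melanocyte list summed to 228 to 582 CPM in control and 699 to 927 CPM in Dnmt1Δ/Δep libraries, with 0 of 8 genes called by edgeR and 5 higher at an unadjusted p under 0.05, and with the replicate block 3 were called upregulated (Tyrp1, Dct and Kit, adjusted p = 0.026, 0.027 and 0.02). The part of these cells in the values of the 9 genes was not tested.

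The position of the 9 genes was not used to choose them, so the other genes within 200 kb were examined. Of 69 such genes tested, 11 (15.9%) were upregulated and 0 downregulated by edgeR (0 also by DESeq2), with 18 higher and 2 lower at an unadjusted p under 0.05. The count of 11 became 7 without control replicate 2, Dnmt1Δ/Δep replicate 1 or Dnmt1Δ/Δep replicate 2, and 5 when a mean of at least 1 RPKM was required. Around the chromosome 15 members 6 of 13 were upregulated (46.2%, median log2 fold change 1.21), around Ly6g6c 3 of 36 (8.33%, median 0.01) and around the chromosome 7 members 2 of 20 (10%, median 0.04), beside 6.03% of all genes tested. Of those near the chromosome 15 members, Psca is itself of the family.

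The other 5 genes called near the chromosome 15 members match no symbol on the family list. Some names on that list, Ly6m among them, found no match, so a family gene under another symbol could be among the 5. Mroh4 rose by 3.49 ± 0.43 (edgeR adjusted p = 0.0036), Arc by 2.49 ± 0.29 (adjusted p = 0.0031), Them6 by 1.21 ± 0.19 (adjusted p = 0.0093), Adgrb1 by 3.16 ± 0.59 (adjusted p = 0.019) and 2010109I03Rik by 1.25 ± 0.31 (adjusted p = 0.049), on the log2 scale. Arc, an immediate early gene of neurons, went from 0.92, 1.27 and 0.912 CPM to 7.03, 6.58 and 3.9 CPM, with no overlap. Of the exon bases of Them6, 18% overlap Slurp1. Adgrb1 had 7 or fewer counts in each control library, and its call was lost without control replicate 2 (3.59), Dnmt1Δ/Δep replicate 1 (3.08) or Dnmt1Δ/Δep replicate 2 (3.07). The call of 2010109I03Rik was lost with the replicate block (1.19) and in every fit without a library except that without Dnmt1Δ/Δep replicate 3. Between them lay genes that were not called, with log2 fold changes from -0.38 (Gm17189) through 0.03 ± 0.14 (Jrk), 0.13 ± 0.12 (D730001G18Rik) and 0.27 ± 0.44 (Gml2) to 0.92 ± 0.36 (Gml) and 1.64 ± 0.60 (Slurp1), beside Lynx1 and Ly6d.

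**Figure D5:**
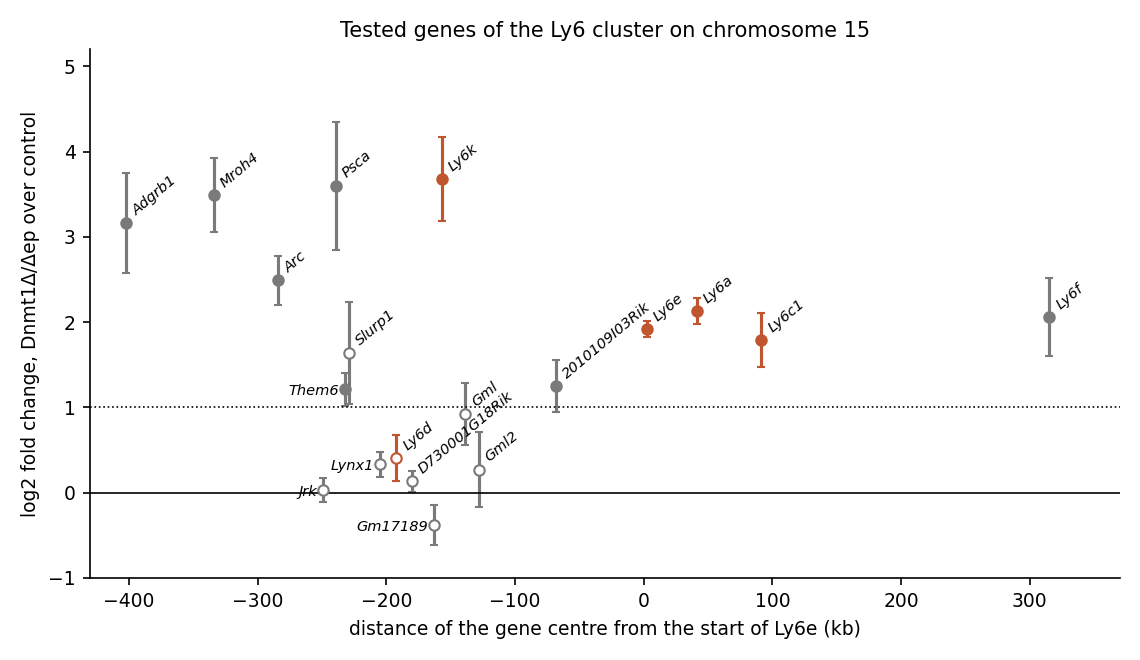
Log2 fold change of Dnmt1Δ/Δep over control with its SE for every tested gene whose centre lies within 450 kb of the start of Ly6e on chromosome 15, against that distance in kb; orange are Ly6d, Ly6k, Ly6e, Ly6a and Ly6c1, grey are other genes, filled symbols were called and the dotted line marks a log2 fold change of 1. Jrk, Lynx1, Ly6d, D730001G18Rik, Gm17189 and Gml2 lie among the called genes with values between -0.38 and 0.41, and Gml (0.92) and Slurp1 (1.64) were not called either.

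Near the other loci, Ly6g6c had H2-D1, which encodes a class I antigen-presenting molecule, at 192.7 kb. It rose from 45.4, 91.3 and 60 CPM to 304, 252 and 327 CPM (2.17 ± 0.26, edgeR adjusted p = 0.0031). Tnf, at 129.3 kb, rose by 2.73 ± 0.40 (adjusted p = 0.0074) and Slc44a4, at 135 kb, by 3.01 ± 0.46 (adjusted p = 0.0083). On chromosome 7, Tex101 lies 26.9 kb from Lypd3. Tescl, 15.3 kb from Lypd5, was at 0 counts in all controls, and its Dnmt1Δ/Δep level was at least 7.51-fold higher than a floor of 3 counts per control library (edgeR adjusted p = 0.018). Its call was lost without control replicate 2, Dnmt1Δ/Δep replicate 1 or Dnmt1Δ/Δep replicate 2.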

How the data were processed

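Poly(A) RNA-seq of cultured keratinocytes was compared between 3 control and 3 Dnmt1Δ/Δep libraries, grouped by their labels. After adapter trimming and removal of ribosomal reads, the authors aligned with STAR and counted uniquely mapped reads per gene with htseq-count (union). The deposited gene values are raw counts, whole numbers summing to between 53433121 and 115526598 per library, after leaving out entries that name no gene (8.73% to 12.9%). The study names a human build for genes in one passage, whereas the submitters' processing notes name GRCm38. Deposited repeat counts and the authors' comparison tables (fold changes, p-values and 12 columns of normalized counts per library) were not used.

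The 9 genes and all lists were chosen with earlier results of these data known. Counts were fitted with edgeR 4.0.16 (R 4.3.3) by its quasi-likelihood test after TMM scaling and filterByExpr (minimum counts of 10 and 15), and p-values were Benjamini-Hochberg adjusted over 16829 genes. CPM are counts over library size times TMM factor, and RPKM were computed from them with merged exon lengths of GENCODE M21. Of 43629 identifiers 97.3% had a symbol. Alternatives were DESeq2 1.42.0, RLE and upper-quartile factors, no filter, a mean of at least 1 RPKM in either group, a replicate block, and leaving out each library. The calls were tested on simulated data. Named genes were the 9, other family genes called or tested with a mean of at least 1 CPM, the 3 largest called rises and falls per context list, called genes within 200 kb of the 9, the 3 most correlated genes per member, and marker genes where their list moved with a result. One further gene is not reported here. Others (Gm17189, Ly6c2, Ly6i, Jrk, D730001G18Rik, Gml, Gml2, Slurp1, Krt5, Krt14, Col17a1, Dst, marker genes at or near 0 and genes whose call the block changed) were named after their values were seen. Promoter windows came from RefSeq (GRCm38.p6). The replicate numbers pair the libraries: same-numbered libraries share a flow cell lane in the table headers (3 lanes), and their deviations from the group means correlated at 0.46, 0.40 and 0.31. The study gives 3 mice and 3 biological replicates per group, while the labels do not link a library to a mouse. The p-values measure the spread between these libraries.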

Additional observations from a re-analysis of the deposited data

How the results depend on the processing

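Of the 9 genes, Ly6a, Ly6e and Ly6k were called in all 12 alternatives, Ly6c1 in 9, Plaur in 4, Lypd5 in 2 (DESeq2 and no filter), and Ly6d, Ly6g6c and Lypd3 in 0, and no sign turned. DESeq2 called 6 of the 9, and fits without a library called 3 to 5. Leaving out single libraries moved the log2 fold change of Plaur from 1.07 to 2.10 and that of Ly6e from 1.86 to 1.94. The 1014 upregulated genes became 395 and the 66 downregulated 35 when a mean of at least 1 RPKM was required, which tests fewer genes; the downregulated became 116 with DESeq2 and 107 with no filter. With that RPKM minimum, other Ly6/uPAR genes called fell to 1, GPI anchor genes to 0, interferon-stimulated genes to 9 and genes near the 9 members to 5. Called urokinase system genes were 2 and upregulated suprabasal genes 3 both with DESeq2 and with no filter, and downregulated suprabasal genes were 2 in each. With the replicate block, which pairs the lanes, urokinase system genes called were 2, suprabasal genes 0 up and 1 down (Tgm3, -1.18), and Plaur was called (1.55); among the lists and neighbours it further added, among others, Ifih1, Herc6, Gbp3, Igtp, Tie1, Cd34, Tyrp1, Dct, Kit and Kcnn4 and dropped Cnfn, Csf1r, Fbn1 and 2010109I03Rik, and it changed no other call named here. Without single libraries the counts ranged from 559 to 1183 upregulated and 15 to 180 downregulated genes, 1 to 4 other Ly6/uPAR genes, 1 to 2 urokinase system genes, 0 to 2 GPI anchor genes, 10 to 26 interferon-stimulated genes, 0 to 3 suprabasal genes up and 0 to 4 down, 0 to 1 basal genes down and 7 to 12 genes near the 9 members. Except where an alternative tests fewer genes or libraries, the cause was not tested. The floor of 3 counts that a count of 0 allows is 0.0254 to 0.0558 CPM, for counting error only.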
